A study of Mus musculus with 8 samples.

Results

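The smooth muscle contractile programme comprises 35 genes whose products build, regulate or trigger the contractile apparatus of the gut wall. They were taken by symbol from a list of names, chosen with earlier results of these data known. All 35 were measured, each by its own probe set, among the 30702 genes named on the array. The samples are colons of Rag1-/- mice on the C57BL/6 strain, of which 3 had received naïve T cells and were severely inflamed and 5 had received regulatory T cells (Treg) and served as controls. Loss of Rag1, shared by both groups, leaves a mouse without its own mature lymphocytes, so any T cells derive from the donor cells. Transfer took place at an age of 10 weeks and collection followed after 2 to 4 months, while the age label reads 4 to 5 months. Distal colon is named in the protocol of the samples but a longer strip of bowel in the design text, so the region is uncertain.

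Smooth muscle contracts when calcium that enters through L-type channels, or leaves internal stores, binds calmodulin and activates myosin light-chain kinase. The kinase phosphorylates the regulatory light chain of smooth muscle myosin, which then pulls on actin filaments anchored in dense bodies and membrane plaques. In the gut, acetylcholine from enteric neurons starts this through muscarinic receptors. The coactivator myocardin, together with serum response factor, switches on many of the contractile genes.

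Arrays were alike in overall signal, and inflamed replicate 2 stood somewhat apart. Pearson's r over transcript clusters was 0.986 to 0.995 between inflamed arrays and 0.994 to 0.997 between controls, and inflamed replicate 2 had the lowest values within its group. Smooth muscle markers were bright in both groups, with means of 10.24 to 12.09 on the log2 scale for Acta2, Actg2, Myh11, Tagln and Cnn1, where the median over all transcript clusters was 4.88. The mean over 11 skeletal muscle markers was 5.44 to 5.60 on inflamed and 5.56 to 5.61 on control arrays, and that over 5 cardiac markers 5.60 to 5.80 on inflamed and 5.74 to 5.86 on control arrays.

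Contractile genes were lower in inflamed colon. At a Benjamini-Hochberg adjusted p under 0.05 in limma, fitted over all genes, 14 of 35 members fell and 0 rose, where 13.1% of all genes changed, 5.04% falling and 8.06% rising. At an unadjusted p under 0.05, 30 members were lower, as were 13% of all genes, and 1 was higher. The difference of inflamed minus control means was negative for 34 of 35 members, with a median of -0.43 on the log2 scale, against -0.013 over all genes. For 22 members all inflamed values lay below all control values, which held for 9.17% of all genes. For 1 member, Atp2a2, all inflamed values lay above all control values, as for 12% of all genes. Because the members were chosen with earlier results known, the shares over all genes describe the set and do not test it. These are levels in whole tissue. Fewer muscle cells, a smaller share of muscle RNA beside that of other cells, and less RNA per muscle cell cannot be told apart.

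**Figure D1:**
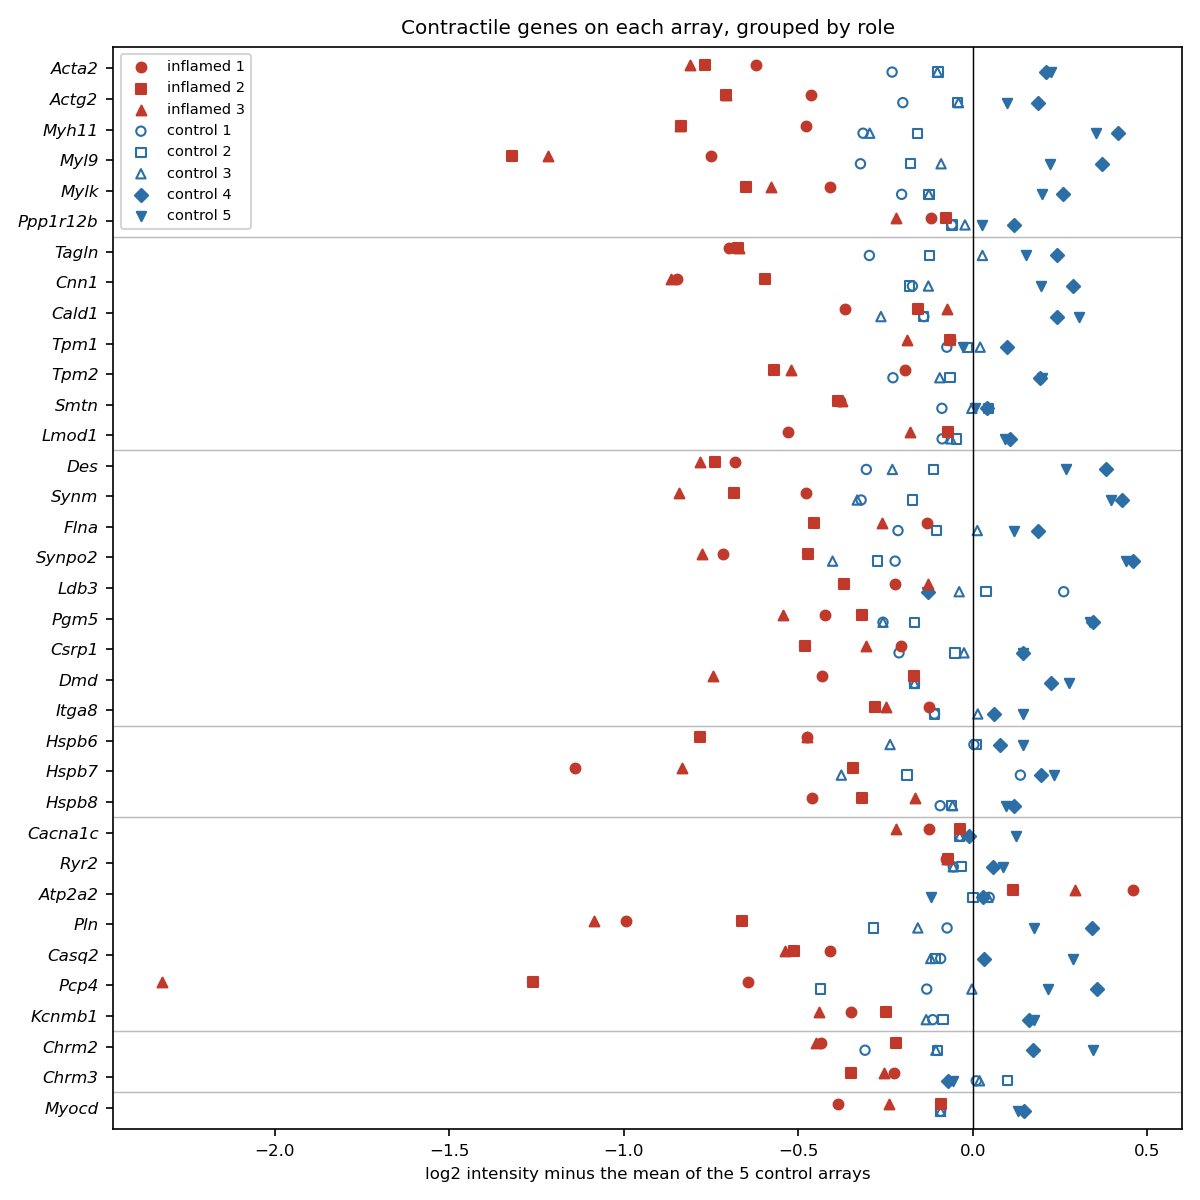
Log2 intensity of each of the 35 genes on each array, relative to the mean of the 5 control arrays, with inflamed arrays in red and control arrays in blue, grouped by role. All red points lie left of all blue points for 22 genes, and controls 4 and 5 are the highest controls for 30 of the 35.

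The control arrays were not uniform for these genes. Averaged over the 35 members, the log2 level was 7.87, 7.84 and 7.76 on inflamed arrays 1 to 3, and 8.15, 8.19, 8.18, 8.47 and 8.46 on controls 1 to 5. Controls 4 and 5 were the highest controls for 30 members, the exceptions being Tpm1, Smtn, Ldb3, Atp2a2 and Chrm3. With both left out, 10 of the 14 members that fell still passed, Myl9, Hspb6, Hspb8 and Pcp4 being lost, and the median member difference was -0.32. Over all genes 1670 were then called in either direction, against 4022 with all arrays. The transcript Xist was high on 3 controls, replicates 3 to 5, and on inflamed replicate 3. Control 3 lay with controls 1 and 2 in the members. The part of the Xist pattern in the higher levels of controls 4 and 5 was not tested. With this pattern as a block 11 members fell, and 3273 of all genes were called in either direction. Among the arrays without high Xist, 2 inflamed and 2 control, limma called 0 members and 0 of all 30702 genes. At an unadjusted p under 0.05, 16 members were lower and 4597 of all genes changed in either direction. The difference was negative for 34 of 35 members.

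Promoters are shown for members that fell and whose promoter held a motif of serum response factor, the factor through which myocardin acts. RefSeq's promoters of build GRCm38.p6, from 250 bases before to 50 after a start, covered 30 of the 35 members with 38 promoters. Actg2, Tagln, Myh11, Myocd and Atp2a2 had none there and were not searched. Of these, Actg2 and Tagln fell. The CArG box, a pair of C bases, a run of A or T bases and a pair of G bases, which covers both strands in 1 search, was found for 3 of the 30 members (Myl9, Dmd and Ldb3) and for 1.81% of all genes in the table. With a G or C allowed at 1 of the central positions, a CArG-like match was found for 6 members and for 9.69% of all genes. Either kind was found for 8 of the 30 members and 11.3% of all genes. Acta2, Myl9, Hspb6 and Pcp4 are those of the 8 that fell, and their promoters follow, 5′ to 3′, with the matches in capitals.
Acta2, chr19:34255324-34255623, minus strand: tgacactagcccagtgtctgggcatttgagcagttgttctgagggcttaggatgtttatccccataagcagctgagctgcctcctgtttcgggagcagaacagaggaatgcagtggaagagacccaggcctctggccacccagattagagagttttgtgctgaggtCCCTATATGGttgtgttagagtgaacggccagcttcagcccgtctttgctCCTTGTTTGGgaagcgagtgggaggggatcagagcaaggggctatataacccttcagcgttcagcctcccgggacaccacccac
Myl9, chr2:156775214-156775513, plus strand: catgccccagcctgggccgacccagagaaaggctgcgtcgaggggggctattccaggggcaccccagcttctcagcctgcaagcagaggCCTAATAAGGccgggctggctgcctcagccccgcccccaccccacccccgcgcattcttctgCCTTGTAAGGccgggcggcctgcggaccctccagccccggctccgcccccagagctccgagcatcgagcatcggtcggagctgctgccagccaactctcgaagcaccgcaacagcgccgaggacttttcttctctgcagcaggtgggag
Hspb6, chr7:30553051-30553350, plus strand: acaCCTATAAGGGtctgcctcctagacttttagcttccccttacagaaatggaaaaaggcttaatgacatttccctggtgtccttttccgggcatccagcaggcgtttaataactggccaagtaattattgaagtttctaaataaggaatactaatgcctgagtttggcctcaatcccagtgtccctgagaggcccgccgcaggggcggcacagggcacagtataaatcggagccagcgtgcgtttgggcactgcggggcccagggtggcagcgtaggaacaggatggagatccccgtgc
Pcp4, chr16:96467356-96467655, plus strand: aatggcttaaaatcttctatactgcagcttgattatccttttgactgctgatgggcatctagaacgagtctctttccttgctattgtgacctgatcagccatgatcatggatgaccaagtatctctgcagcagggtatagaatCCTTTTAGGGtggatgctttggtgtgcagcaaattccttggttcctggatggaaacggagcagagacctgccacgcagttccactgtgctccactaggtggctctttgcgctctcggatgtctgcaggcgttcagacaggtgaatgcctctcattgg
The CArG-like matches of Acta2 begin 84 and 34 bases before the start. Myl9 has a CArG box 161 bases and a CArG-like match 99 bases before it, and the matches of Hspb6 and Pcp4 begin 247 and 107 bases before it. Hspb6 has another promoter in the table that holds no match. A match describes the letters in this window, and binding was not tested.

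Of 6 genes for actin, myosin and the enzymes that act on its light chain, 4 fell and Myh11 and Ppp1r12b did not pass. The groups did not overlap for any of the 6. Over all genes 5.04% fell and 9.17% lay below all controls, and the counts of the other roles stand beside the same shares. Acta2, the α-actin of smooth muscle, which vascular muscle and myofibroblasts also make, was at 11.47, 11.32 and 11.28 on inflamed arrays, against 11.86, 11.99, 11.99, 12.30 and 12.31 on controls. Every inflamed array was below the lowest control. Acta2 fell by 0.73 ± 0.12 on the log2 scale, to 60.2% of the control level (adjusted p = 0.00801, limma). Actg2, the γ-actin of visceral muscle, was at 11.05, 10.80 and 10.81 in inflamed colon and at 11.31, 11.47, 11.47, 11.70 and 11.61 in controls. It fell by 0.63 ± 0.098, to 64.8% (adjusted p = 0.00711). These actins and the skeletal actin Acta1 are close paralogs whose probes may share signal, and Acta1 differed by -0.15 ± 0.099 (adjusted p = 0.347).

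Myl9, the regulatory light chain that the kinase phosphorylates, had the largest fall among filament genes. It was at 10.50, 9.93 and 10.03 on inflamed arrays and at 10.93, 11.07, 11.16, 11.62 and 11.47 on controls. It fell by 1.10 ± 0.19, to 46.8% of the control level (adjusted p = 0.0117), and without controls 4 and 5 the difference was -0.90 (adjusted p = 0.0505). Myh11, the smooth muscle myosin heavy chain, was at 10.61, 10.25 and 10.25 in inflamed colon, against 10.77, 10.93, 10.79, 11.50 and 11.44 in controls. The groups did not overlap, but the controls spread widely and the difference of -0.72 ± 0.21 (adjusted p = 0.065) did not pass. It passed with quantile normalization (adjusted p = 0.042), with a floor on low values (adjusted p = 0.0406) and with dim genes left out (adjusted p = 0.037). The floor and the dim-gene setting left the difference as it was and adjusted over fewer genes, 20222 and 19350. Without controls 4 and 5 the difference was -0.46 (adjusted p = 0.103).

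Mylk, the myosin light-chain kinase, was at 7.81, 7.56 and 7.64 on inflamed arrays and at 8.01, 8.09, 8.09, 8.47 and 8.41 on controls, without overlap. It fell by 0.55 ± 0.12 (adjusted p = 0.0302). The call ended without control 2, control 5 or any of the inflamed arrays (adjusted p = 0.051 to 0.0829), and with the Xist pattern as a block (adjusted p = 0.0516). Ppp1r12b, a regulatory subunit of the phosphatase that opposes the kinase, was at 6.57, 6.61 and 6.47 in inflamed colon and at 6.63 to 6.80 in controls, a difference of -0.14 ± 0.053 (adjusted p = 0.135) that was -0.091 without controls 4 and 5.

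Among 7 regulators that bind actin filaments, Tagln, Cnn1 and Smtn fell, each without overlap. Tagln encodes transgelin, an early marker of smooth muscle, and was at 10.22, 10.24 and 10.24 on inflamed arrays and at 10.62, 10.79, 10.94, 11.16 and 11.07 on controls. It fell by 0.68 ± 0.12 (adjusted p = 0.0106), and its inflamed arrays were nearly equal. Cnn1, calponin, which restrains the myosin ATPase, was at 10.31, 10.57 and 10.30 in inflamed colon, against 10.99, 10.98, 11.03, 11.45 and 11.36 in controls. Its fall was 0.77 ± 0.13 (adjusted p = 0.0112).

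Smtn encodes smoothelin, a marker of differentiated contractile cells, and had the smallest adjusted p of the 35 members. It was at 7.91, 7.90 and 7.91 on inflamed arrays, against 8.20, 8.33, 8.28, 8.33 and 8.29 on controls. The fall of 0.38 ± 0.035 (adjusted p = 0.001) was moderate in size with little spread in either group, and without controls 4 and 5 the difference was -0.37 (adjusted p = 0.0169).

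The other actin-binding members did not pass. Tpm2, a tropomyosin of muscle, was at 8.88, 8.50 and 8.55 on inflamed arrays and at 8.84, 9.01, 8.98, 9.26 and 9.27 on controls, a difference of -0.43 ± 0.13 (adjusted p = 0.0729). Inflamed replicate 1 lay above control 1. Tpm2 passed with quantile normalization, with a floor and with dim genes left out (adjusted p = 0.0368, 0.0475 and 0.044). The floor and the dim-gene setting again only adjusted over fewer genes. Tpm1, whose isoforms many cell types make, differed by -0.11 ± 0.048 (adjusted p = 0.195), and by -0.066 without inflamed replicate 3. Cald1, caldesmon, which also has a non-muscle form, differed by -0.20 ± 0.15 (adjusted p = 0.417). Its difference was -0.017 without controls 4 and 5, -0.12 without control 5 and -0.12 without inflamed replicate 1. Lmod1, leiomodin, which nucleates actin filaments in muscle, was at 6.66, 7.12 and 7.01 in inflamed colon and at 7.10 to 7.29 in controls, a difference of -0.26 ± 0.11 (adjusted p = 0.156). Without inflamed replicate 1, its lowest array, the difference was -0.13, and with array weights it passed (adjusted p = 0.03).

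Of 9 genes of intermediate filaments, dense bodies and membrane anchors, 1 fell, Des, although all 9 differences were negative with an unadjusted p under 0.05. Over all genes 5.04% fell and 13% were lower at the unadjusted cut. Controls 4 and 5 were the highest controls for each of the 9 except Ldb3. Des, desmin, the intermediate filament of muscle, was at 9.78, 9.72 and 9.68 on inflamed arrays, against 10.16, 10.35, 10.23, 10.84 and 10.73 on controls, without overlap. It fell by 0.73 ± 0.17, to 60.1% of the control level (adjusted p = 0.0298). The call ended without control 2, control 5 or any of the inflamed arrays (adjusted p = 0.0571 to 0.082) and with the Xist pattern as a block (adjusted p = 0.053), and held without controls 4 and 5 (adjusted p = 0.0176).

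Synm and Synpo2 had the largest control SDs of the 35 members. Synm, synemin, which links desmin to the membrane, was at 8.11, 7.91 and 7.75 in inflamed colon and at 8.27, 8.42, 8.26, 9.02 and 8.99 in controls, a difference of -0.67 ± 0.22 (adjusted p = 0.0909). Synpo2, an actin-bundling protein, was at 7.87, 8.11 and 7.81 in inflamed colon and at 8.36, 8.31, 8.18, 9.04 and 9.02 in controls, a difference of -0.65 ± 0.23 (adjusted p = 0.114). Neither overlapped, and controls 4 and 5 stood well above the other controls in both. Without them the differences were -0.39 for Synm and -0.36 for Synpo2.

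The other anchor genes did not pass either. Dmd, dystrophin, differed by -0.45 ± 0.17 (adjusted p = 0.128), and Pgm5, a protein of muscle adhesion sites, by -0.43 ± 0.18 (adjusted p = 0.16). Controls 4 and 5 were high for both, and without them the differences were -0.28 for Dmd and -0.20 for Pgm5. Csrp1, a LIM protein of actin bundles, differed by -0.33 ± 0.098 (adjusted p = 0.0697) and passed under 5 alternatives (adjusted p = 0.037 to 0.0468), among them quantile normalization and centred arrays. Flna, the widely made actin crosslinker filamin A, differed by -0.28 ± 0.11 (adjusted p = 0.141), and by -0.18 without controls 4 and 5. Ldb3, known from the Z-disc of striated muscle, differed by -0.24 ± 0.10 (adjusted p = 0.169). Itga8, an integrin chain of mesenchymal cells, averaged 4.82 ± 0.081 in inflamed and 5.04 ± 0.11 in control colon (SD, n = 3 and 5), close to the array median, where a difference is hard to detect. It differed by -0.22 ± 0.07 (adjusted p = 0.087).

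**Figure D2:**
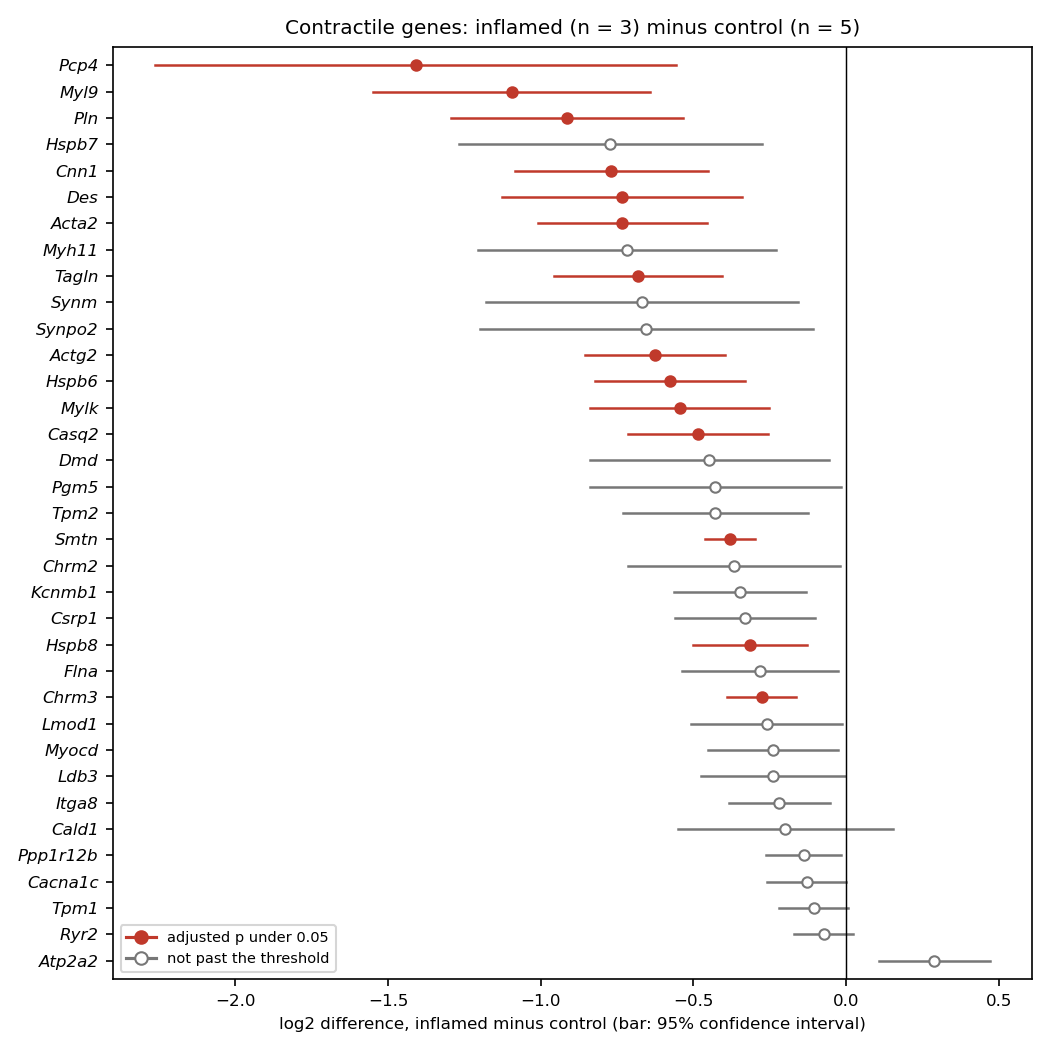
Points are the log2 difference of inflamed minus control means for each of the 35 genes, with 95% confidence intervals from limma. The 14 genes that fell are marked by colour, and Atp2a2 is the only gene right of 0.

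Of the 3 genes for small heat shock proteins 2 fell. Hspb6, which encodes Hsp20, a target of cyclic-nucleotide kinases in relaxing muscle, was at 7.08, 6.78 and 7.08 on inflamed arrays and at 7.56, 7.57, 7.32, 7.63 and 7.70 on controls. It fell by 0.58 ± 0.10 (adjusted p = 0.0129), and without controls 4 and 5 the difference was -0.50 (adjusted p = 0.0868). Hspb8, a chaperone that clears damaged proteins in muscle, was at 6.69, 6.83 and 6.98 in inflamed colon, against 7.05, 7.09, 7.09, 7.27 and 7.24 in controls. It fell by 0.31 ± 0.08 (adjusted p = 0.0423), a call that ended without any array other than inflamed replicate 3 (adjusted p = 0.0568 to 0.129) and without controls 4 and 5 (adjusted p = 0.181).

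Hspb7, a small heat shock protein of heart and muscle, had a larger difference than either but more spread. It was at 5.78, 6.58 and 6.09 on inflamed arrays and at 7.06, 6.73, 6.54, 7.12 and 7.15 on controls. Inflamed replicate 2 lay above control 3, and the difference was -0.77 ± 0.21 (adjusted p = 0.0543). It passed under 7 alternatives (adjusted p = 0.0122 to 0.0498), among them quantile normalization and leaving out control 3 or inflamed replicate 2.

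In calcium handling, 3 of 7 members fell, all without overlap. Pln, phospholamban, the inhibitor of the store's calcium pump, was at 5.50, 5.84 and 5.41 on inflamed arrays, against 6.42, 6.21, 6.34, 6.84 and 6.67 on controls. It fell by 0.91 ± 0.16, to 53.1% of the control level (adjusted p = 0.0117), and sat at the threshold without inflamed replicate 1 (adjusted p = 0.0501). Casq2, calsequestrin, which holds calcium in the store, was at 5.53, 5.43 and 5.40 in inflamed colon and at 5.85, 5.83, 5.82, 5.97 and 6.23 in controls. It fell by 0.49 ± 0.098 (adjusted p = 0.0191), a call that ended without control 4, inflamed replicate 2 or inflamed replicate 3 (adjusted p = 0.0503 to 0.0588).

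Atp2a2, the calcium pump SERCA2, which nearly all cell types make, was the only member with a positive difference. It was at 10.83, 10.49 and 10.67 on inflamed arrays and at 10.42, 10.38, 10.42, 10.40 and 10.25 on controls. The groups did not overlap, and the difference of 0.29 ± 0.078 (adjusted p = 0.0516) lay just outside the threshold. It passed without inflamed replicate 2 (adjusted p = 0.0144), with quantile normalization (adjusted p = 0.046) and with arrays centred on their medians (adjusted p = 0.0238), among 6 alternatives.

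Pcp4, a small calmodulin regulator that neurons make too, had the largest difference of the 35 members and the widest spread among inflamed arrays. It was at 8.46, 7.84 and 6.78 on inflamed arrays, against 8.97, 8.67, 9.10, 9.46 and 9.32 on controls. It fell by 1.41 ± 0.36, to 37.6% of the control level (adjusted p = 0.0451). The difference was -0.95 without inflamed replicate 3, and the call ended without any array other than inflamed replicate 1 (adjusted p = 0.0625 to 0.102). It also ended without controls 4 and 5 (adjusted p = 0.224), with the Xist pattern as a block (adjusted p = 0.0712) and with array weights (adjusted p = 0.071).

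The channels did not pass. Kcnmb1, the subunit that makes potassium channels of smooth muscle sensitive to calcium, was at 6.91, 7.01 and 6.82 in inflamed colon, against 7.15, 7.18, 7.13, 7.42 and 7.43 in controls. The groups did not overlap, and the difference of -0.35 ± 0.092 (adjusted p = 0.0501) lay at the threshold and passed under 5 alternatives (adjusted p = 0.031 to 0.0497), among them quantile normalization and array weights. Cacna1c, the pore of the L-type calcium channel, differed by -0.13 ± 0.055 (adjusted p = 0.178), and by -0.082 without inflamed replicate 3. Ryr2, a calcium release channel, differed by -0.074 ± 0.041 (adjusted p = 0.285), and by -0.026 without controls 4 and 5. Ryr2 averaged 4.96 in inflamed and 5.03 in control colon, close to the array median. For Cacna1c, Dmd and Myocd 4 of the 8 arrays held an identical value, and at least 3 arrays did so for 39.8% of all genes; the part of such ties in the spread was not tested.

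Of the muscarinic receptor genes, Chrm3 fell. Chrm3, which drives contraction, was at 5.99, 5.87 and 5.96 on inflamed arrays and at 6.23, 6.32, 6.24, 6.15 and 6.16 on controls. It fell by 0.28 ± 0.048 (adjusted p = 0.0109), and controls 4 and 5 were its lowest controls. Chrm2, the more abundant muscarinic receptor protein of gut muscle, was at 5.68, 5.90 and 5.67 in inflamed colon and at 5.81, 6.02, 6.01, 6.29 and 6.46 in controls, a difference of -0.37 ± 0.15 (adjusted p = 0.155) that was -0.20 without controls 4 and 5. Its inflamed replicate 2 lay above control 1.

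Myocd, which encodes myocardin, was at 5.50, 5.79 and 5.64 in inflamed colon, against 5.79, 5.79, 5.79, 6.03 and 6.01 in controls. Inflamed replicate 2 equalled the lowest controls, and the difference was -0.24 ± 0.09 (adjusted p = 0.132). It was -0.15 without controls 4 and 5, and passed with array weights (adjusted p = 0.0428). Its partner Srf averaged 8.33 in inflamed and 8.28 in control colon, a difference of 0.041 ± 0.061 (adjusted p = 0.689); it was named after its value was seen.

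Members that work together were compared by the log2 difference between them on each array. None of the 6 pairs passed an exact two-sided permutation test over 56 splits of the arrays after Benjamini-Hochberg adjustment over the 6. The smallest p the design allows is 0.0179. After adjustment, a pair at this p passes only when several other pairs also have a small p. The lack of calls therefore does not show that the genes of a pair moved equally. Pln relative to Atp2a2 differed by -1.20 (exact p = 0.0179, adjusted p = 0.0536), with inflamed arrays at -1.45 to -0.78 and controls at -0.28 to 0.31 around the control mean. Mylk relative to Ppp1r12b differed by -0.41 (exact p = 0.0179, adjusted p = 0.0536), with inflamed arrays at -0.57 to -0.29 and controls at -0.14 to 0.17. The groups did not overlap in either pair.

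The other pairs overlapped. Tpm1 relative to Tpm2 differed by 0.32 (exact p = 0.0536, adjusted p = 0.107), with inflamed arrays at 0.13 to 0.50 and controls at -0.23 to 0.15. Acta2 relative to Actg2 differed by -0.11 (exact p = 0.107, adjusted p = 0.161), with inflamed arrays at -0.16 to -0.06 and controls at -0.06 to 0.13. Des relative to Synm differed by -0.066 (exact p = 0.429, adjusted p = 0.514), and Chrm2 relative to Chrm3 by -0.09 (exact p = 0.643, adjusted p = 0.643).

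**Figure D3:**
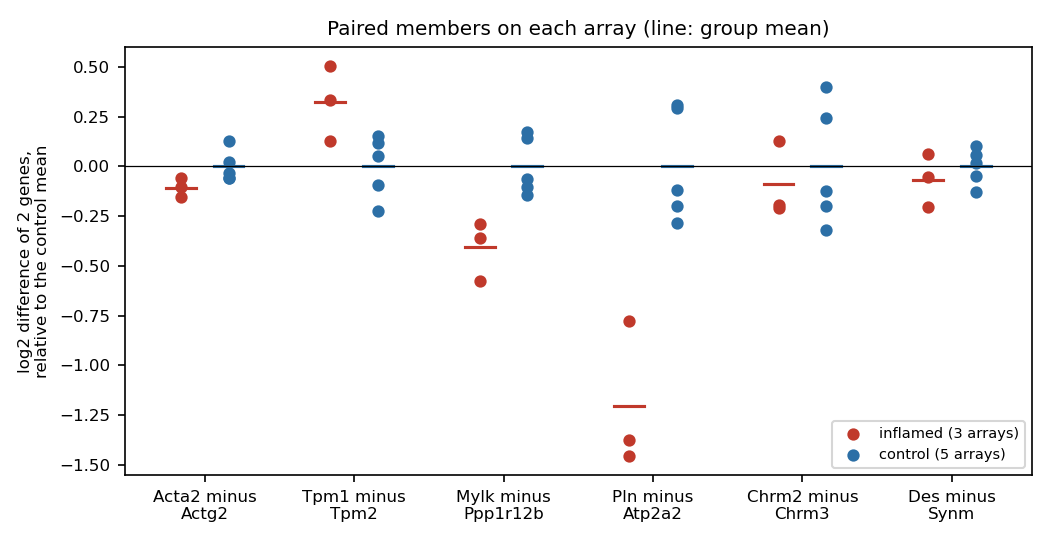
Log2 difference between the paired genes on each array, relative to its mean over the 5 control arrays, with inflamed arrays left and control arrays right and lines at the group means. The groups lie apart for Pln minus Atp2a2 and Mylk minus Ppp1r12b, and meet or overlap in the other 4 pairs.

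Contractile and plaque genes outside the members moved in both directions. Of 36 measured, 9 fell and 5 rose, with a median difference of -0.089. Over all genes, 5.04% fell and 8.06% rose in limma, and 13% were lower at an unadjusted p under 0.05. The counts of the lists that follow are to be read beside these shares. Fhl1, a LIM protein of muscle, was at 7.58, 8.13 and 7.87 in inflamed colon, against 8.71, 8.58, 8.73, 8.77 and 9.03 in controls, and fell by 0.90 ± 0.14 (adjusted p = 0.0067). Pdlim3, which binds α-actinin, fell by 0.80 ± 0.17 (adjusted p = 0.0255), a call that ended without control 4 or inflamed replicate 1 or 3 (adjusted p up to 0.0837). Cnn2, a calponin of non-muscle cells, rose by 0.88 ± 0.068 (adjusted p = 0.000545), and Tpm4, a tropomyosin of non-muscle cells, rose by 0.78 ± 0.057 (adjusted p = 0.000438). Without inflamed replicate 1, 1 of the 36 fell, and without controls 4 and 5, 3 fell and 4 rose.

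Of 22 regulators of the programme, 0 fell in limma, with 5 lower at an unadjusted p under 0.05, and 5 rose. Tgfb1, a growth factor that induces contractile genes, rose by 0.61 ± 0.051 (adjusted p = 0.000729), and its receptor gene Tgfbr2 rose by 0.56 ± 0.085 (adjusted p = 0.00623; 0.0639 without controls 4 and 5). Elk3, a ternary complex factor that binds with serum response factor, rose by 0.63 ± 0.073 (adjusted p = 0.00233). Fhl2, a LIM cofactor, rose by 0.40 ± 0.074 (adjusted p = 0.0134; 0.0542 without inflamed replicate 1). Leukocytes or stromal cells make several of these too. Without controls 4 and 5, 1 fell and 3 rose.

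Of 18 other genes of excitation and calcium handling, 4 fell and 0 rose in limma, with 0 higher at an unadjusted p under 0.05. Slc8a1, a sodium-calcium exchanger, was at 6.65, 6.97 and 6.37 on inflamed arrays, against 8.01, 7.66, 7.73, 7.86 and 7.87 on controls, and fell by 1.16 ± 0.14 (adjusted p = 0.00242). Itpr2, a release channel of the store, fell by 1.10 ± 0.11 (adjusted p = 0.00129), and Cacna1h, a T-type calcium channel, fell by 0.75 ± 0.067 (adjusted p = 0.000885). Stim1, the sensor of store filling, fell by 0.53 ± 0.11 (adjusted p = 0.0208), but not without control 2, control 5 or inflamed replicate 1 (adjusted p up to 0.0721). Without controls 4 and 5, 3 fell. The part of cells other than muscle in the levels of these 18 genes was not tested.

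Of 16 genes for other receptors and G proteins of gut muscle, 5 fell and 1 rose. P2ry1, a purine receptor of inhibitory transmission, fell by 0.78 ± 0.099 (adjusted p = 0.00318). Tacr2, a neurokinin receptor of gut muscle, fell by 0.72 ± 0.16 (adjusted p = 0.0252), a call that held only without control 3 or inflamed replicate 2 among the fits that left out an array (adjusted p up to 0.089). Htr4, a serotonin receptor, fell by 0.59 ± 0.12 (adjusted p = 0.0219; up to 0.0788 without control 2 or inflamed replicate 1 or 3), and the G protein gene Gna11 by 0.51 ± 0.1 (adjusted p = 0.0169; 0.0508 without inflamed replicate 3). The gene that rose was Gnaq, by 0.47 ± 0.065 (adjusted p = 0.0045), named after its value was seen. Without inflamed replicate 3, 1 of the 16 fell, and without controls 4 and 5, 2 fell. The list mean was 6.57, 6.53, 6.53, 6.52 and 6.56 on controls 1 to 5, so controls 4 and 5 did not stand out as for the members. The part of cells other than muscle in these levels was not tested.

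Of 16 genes listed as setting the calcium sensitivity of the filaments or relaxing them, 3 fell and 0 rose in limma. At an unadjusted p under 0.05, 0 were higher. Zyx, also counted among the contractile and plaque genes above, is 1 of the 16 and did not pass (adjusted p = 0.646). Ppp1r14a, the inhibitor of myosin phosphatase known as CPI-17, fell by 0.39 ± 0.093 (adjusted p = 0.036). Gucy1b1, a subunit of the nitric oxide receptor, fell by 0.34 ± 0.072 (adjusted p = 0.0222), and Pde5a, which breaks down cyclic GMP, fell by 0.36 ± 0.094 (adjusted p = 0.0451). Each call ended in at least 3 of the 8 fits that left out an array, with adjusted p up to 0.0984 for Ppp1r14a, 0.0608 for Gucy1b1 and 0.116 for Pde5a. Pde5a was also lost under another scaling (adjusted p = 0.0742). Without control 3, and without controls 4 and 5, 0 of the 16 fell.

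Markers of other cells were read on the same arrays, and their counts stand beside 5.04% of all genes falling and 8.06% rising. All 8 leukocyte markers rose, with a median difference of 1.75, and their mean was 7.75 to 7.96 on inflamed and 5.97 to 6.16 on control arrays. Ptprc, the CD45 gene, rose by 2.62 ± 0.14 (adjusted p = 0.000134), Cd53 by 2.74 ± 0.087 (adjusted p = 3.10e-05) and Cd52 by 1.46 ± 0.11 (adjusted p = 0.000421). Of 8 epithelial markers 1 rose, and their mean was 11.36 to 11.46 on inflamed and 11.17 to 11.37 on control arrays. Epcam differed by -0.0052 ± 0.032 (adjusted p = 0.938) and Cdh1 by 0.016 ± 0.049 (adjusted p = 0.864), with a sign that varied between alternatives. Krt20 rose by 0.58 ± 0.12 (adjusted p = 0.0199), but not under every scaling (adjusted p up to 0.226) or without control 2, control 5, inflamed replicate 1 or inflamed replicate 2. The part of the leukocyte rise in the lower contractile levels was not tested.

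Other cells of the muscle layers moved less uniformly. Kit, the receptor of the interstitial cells of Cajal, the gut's pacemakers, and of mast cells, was at 7.04, 7.55 and 6.81 in inflamed colon, against 8.64, 8.49, 8.71, 8.43 and 8.33 in controls, and fell by 1.39 ± 0.17 (adjusted p = 0.00272). Ano1, the chloride channel of the pacemaker cells, differed by -0.57 ± 0.25 (adjusted p = 0.19), and 1 of their 4 measured markers fell. The other 2, named after their values were seen, had positive differences, Prkcq of 0.36 ± 0.12 (adjusted p = 0.0962) and Gja1 of 0.08 ± 0.062 (adjusted p = 0.427). The mean of the 4 was 6.34 to 6.71 on inflamed and 6.87 to 7.04 on control arrays. The part of the leukocyte rise in the Prkcq difference was not tested. Of 9 enteric neuron markers 2 fell, Snap25 by 0.96 ± 0.21 (adjusted p = 0.0255) and Uchl1 by 0.52 ± 0.12 (adjusted p = 0.0301), while Elavl4 differed by -0.23 ± 0.097 (adjusted p = 0.163). Ret, named after its value was seen, had a positive difference of 0.53 ± 0.22 (adjusted p = 0.174), with every inflamed array above every control. Both calls ended without control 2, control 4 or inflamed replicate 1, among others. The neuron markers had a mean of 5.90 to 6.03 on inflamed and 6.08 to 6.34 on control arrays.

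Vascular and stromal cells make some contractile genes too. Of 8 pericyte and mural cell markers 1 fell, Rgs5, by 0.61 ± 0.16 (adjusted p = 0.0486), a call that held only without control 2 among the fits that left out an array, and Kcnj8 differed by -0.006 ± 0.043 (adjusted p = 0.948), with a sign that varied between alternatives. Their mean was 6.62 to 6.76 on inflamed and 6.76 to 6.87 on control arrays. Of 8 fibroblast markers 2 fell, Dpt by 0.58 ± 0.15 (adjusted p = 0.0422) and Fap by 0.34 ± 0.076 (adjusted p = 0.0262), each lost in at least 5 of the 8 fits that left out an array. Col1a1 differed by 0.41 ± 0.18 (adjusted p = 0.179) and Col3a1 by 0.49 ± 0.16 (adjusted p = 0.085), and the fibroblast mean was 7.30 to 7.66 on inflamed and 7.28 to 7.67 on control arrays. The part of these cells in the contractile levels was not tested.

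In limma 0 of the 7 endothelial, 5 glial, 5 mesothelial, 4 adipocyte, 11 skeletal muscle and 5 cardiac muscle markers passed. At an unadjusted p under 0.05, 4 of all these were lower and 0 higher, where 13% of all genes were lower. List means were 5.71 to 5.87 on inflamed and 5.78 to 5.86 on control arrays for endothelium and 5.83 to 5.91 on inflamed and 5.90 to 5.99 on control arrays for glia. They were 5.02 to 5.26 on inflamed and 5.12 to 5.22 on control arrays for mesothelium and 4.91 to 5.02 on inflamed and 4.99 to 5.15 on control arrays for adipocytes.

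**Figure D4:**
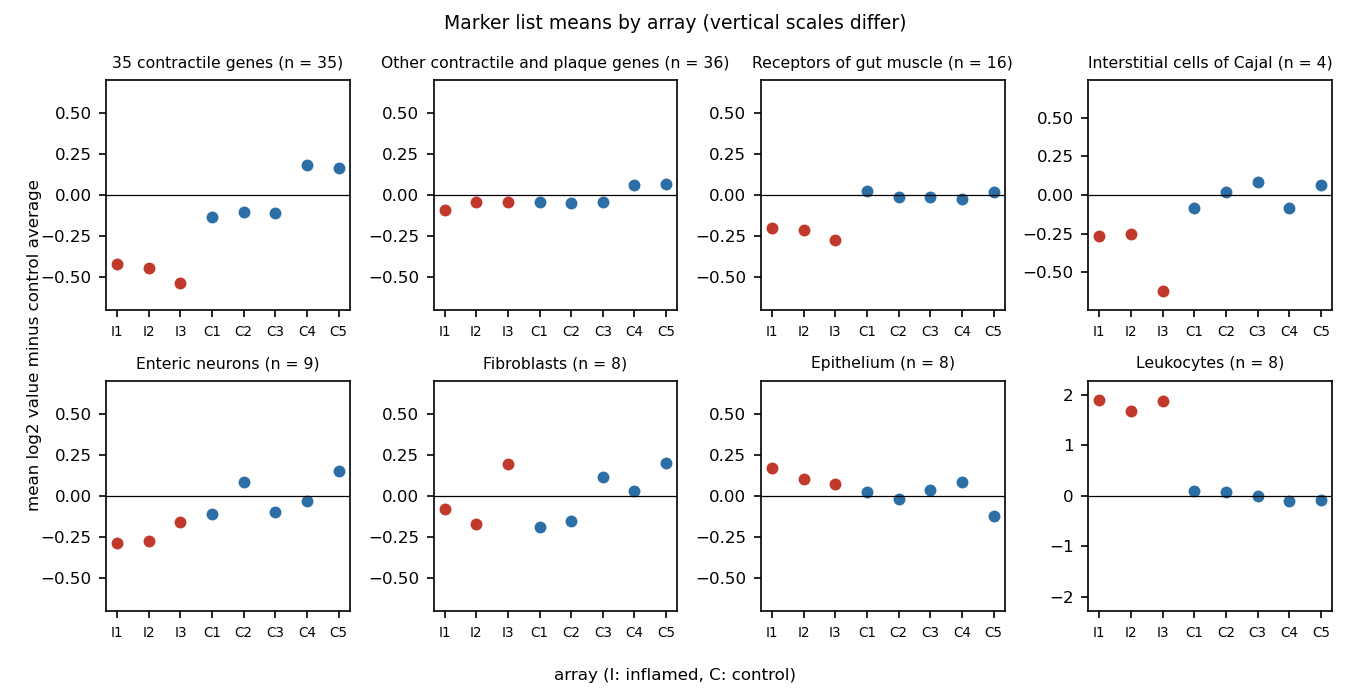
Mean log2 value of 8 of the gene lists on each array, relative to the average of the 5 control arrays, with inflamed arrays in red and control arrays in blue. The 35 contractile genes lie below all controls on the 3 inflamed arrays. So do the receptors of gut muscle and the markers of interstitial cells of Cajal and enteric neurons. The leukocyte markers lie above all controls there, on a wider vertical scale.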

How the data were processed

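Colon RNA of 8 mice, 3 inflamed and 5 control, was hybridised to Affymetrix arrays. The authors deposited log2 values, 1 per probe set and array, which came from RMA in Expression Console, per the submitters' processing notes. Software versions, settings and the genome build were not given in the sources used here. Of 72688 probe sets 65956 are transcript clusters, and the 6732 controls were left out. Symbols came from the platform annotation, updated through RefSeq (GRCm38.p6) for 1152 symbols, and 1492 probe sets of several genes stayed unnamed. The 31258 named probe sets cover 30702 genes, and the brightest by mean over all arrays was taken for the 441 genes with several. Array medians were 4.81 to 4.91, and the number of arrays limits the precision.

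Groups were compared with limma (version 3.58.1, under R 4.3.3) by lmFit and eBayes without covariates, at 0.05 after Benjamini-Hochberg adjustment over all genes. Values after ± are limma's SE unless marked SD. The labels call the replicates biological. The fit was tested on simulated data.

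The members and lists were chosen with earlier results of these data known. Named genes are all members, up to 4 called genes with the largest changes per pathway list, and per cell type list the first 2 written and up to 2 called. List genes without a named probe set are not analysed here. Alternatives covered scaling, a floor, dim genes, probe sets, the variance model, array weights, blocks and leaving out each array. Leaving out controls 4 and 5, and the arrays without high Xist alone, were added after seeing the data.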

Additional observations from a re-analysis of the deposited data

Results flagged for a closer look

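For 83 genes, the members and those the naming rule took from the lists, the gap between the extreme control array and its nearest neighbour was divided by the range of the 5 controls, and for 9 genes the share exceeded Dixon's 95% critical value of 0.71. About 5% of groups exceed it by chance. The 9 include 2 members. Cacna1c was at 6.53 on control 5 and at 6.36 to 6.39 on the others (share 0.843). Atp2a2 was at 10.25 on control 5 and at 10.38 to 10.42 on the others (share 0.724). Itpr2 was low on control 2 at 7.95 (share 0.799), and Cdh1 was high on control 1 at 12.01 (share 0.83). Adipoq was high on control 3 at 3.72 (share 0.895) and Plin1 on control 4 at 5.59 (share 0.874). S100b on control 1, Myh6 on control 2 and Upk3b on control 3 differed from 4 controls with an identical value (share 1 each).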

How the results depend on the processing

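All 35 member differences kept their sign under the 19 alternatives run. Of 665 values 570 stayed on the same side of the threshold, 64 lost the call and 31 gained it. Under some alternatives no sign could change. Means over probe sets repeated the reported fit, as 0 members had more than 1 probe set. Leaving out dim genes and the trended, robust variances left each difference as it was. The replicate block repeated the differences without controls 4 and 5. With a floor or without dim genes, the adjustment covered 20222 or 19350 genes. Members that fell numbered 14 in the reported fit, 10 to 13 when an array was left out, 19 with quantile normalization, with a floor and with dim genes left out, 17 with array weights and 16 with trended, robust variances. Of the 14, 8 passed in all 8 fits that left out an array (Acta2, Actg2, Myl9, Tagln, Cnn1, Smtn, Hspb6 and Chrm3). Changed genes numbered 4022 in all, 2510 to 4573 when an array was left out (2510 without inflamed replicate 1) and 1670 without controls 4 and 5. On the arrays without high Xist, limma called 0 genes and 0 members, with 4597 genes at an unadjusted p under 0.05. With the replicate block it called 0 genes and 0 members, with 4918 genes changed and 19 members lower at an unadjusted p under 0.05. Replicates 4 and 5 exist among controls only, so this block takes them out of the comparison. The member median was -0.32 with the block, as without controls 4 and 5. Deviations of same-numbered arrays correlated at -0.285, -0.0525 and 0.0687. The labels state no pairing, and these correlations cannot show whether same-numbered samples shared a batch. Atp2a2 rose, as 1 member, with array weights, centred arrays, quantile normalization, a floor, dim genes left out and without inflamed replicate 2, so that 0 to 1 members rose when an array was left out. With an array left out, pair differences were -0.13 to -0.075 for Acta2 and Actg2, -0.20 to 0.01 for Chrm2 and Chrm3, -0.13 to 0.0036 for Des and Synm, -0.47 to -0.32 for Mylk and Ppp1r12b, -1.42 to -1.08 for Pln and Atp2a2 and 0.23 to 0.42 for Tpm1 and Tpm2, and the member median was -0.49 to -0.37. Fewer arrays inform the comparison in the fits that leave some out and in the replicate block. The cause of the other shifts was not tested. Low signal limits Itga8 and Ryr2.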
